A study of Homo sapiens with 6 samples.

Results

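The KLK1 to KLK4 end of the kallikrein cluster holds KLK1, KLK15, KLK3, KLK2 and KLK4, and occupies chr19:51320001-51440000 in hg19. Its contacts with the rest of chromosome 19 were measured by Hi-C, which fixes chromatin, joins DNA ends that lie close together in the nucleus and counts each joined pair by sequencing both of its ends. The 5 genes fall into 3 of the 1479 bins of 40 kb on the chromosome, of which 1018 were usable in both maps. The bins were taken by the positions of these genes. The bin at 51320001 holds KLK1, KLK15 and the start of KLK3, the bin at 51360001 holds the rest of KLK3 and all of KLK2, and the bin at 51400001 holds KLK4. Both maps came from LNCaP, an established human prostate cancer cell line that depends on androgen signalling. One set of cells received an siRNA pool without a human target at 20 nM (control siRNA), and the other a pool directed at CTCF, also at 20 nM (CTCF siRNA). All cells were collected at 144 h, having been split and transfected again after 72 h. The authors merged 2 control siRNA libraries and 4 CTCF siRNA libraries into 1 map per condition. There is therefore no replicate, no p-value was computed, and every interval below is a 95% interval that covers counting error only. Hi-C reads DNA contacts and not RNA or protein, so neither the loss of CTCF nor the androgen-dependent state of the cells could be checked in these data.

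Kallikreins are secreted serine proteases encoded by neighbouring genes on chromosome 19. KLK3 encodes prostate-specific antigen, the serum marker of prostate cancer, and KLK2 encodes its close relative, a trypsin-like protease that can activate it. Both are classical androgen-induced genes of luminal prostate cells. KLK4 is a further androgen-regulated protease, known also for its role in enamel formation, KLK1 is tissue kallikrein, which releases kinins, and KLK15 is a trypsin-like member of the family. CTCF binds DNA at sites where cohesin, which extrudes loops, tends to stop, and such sites often mark the borders of topologically associating domains (TADs), stretches of chromatin within which contacts are more frequent than across their borders.

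The KLK3 gene spans 51358171 to 51364020 on the plus strand (ENSG00000142515.16) and crosses the border of its bins, with its start in the first and most of its body in the second. KLK2 (ENSG00000167751.13) spans 51364824 to 51383823 on the plus strand and KLK4 (ENSG00000167749.12) spans 51409607 to 51414651 on the minus strand. Contacts of these promoters can be read only through the BglII fragments that carry them, and the ends of these fragments are printed because they are the points where a contact is captured. The sequences are from the GRCh37 reference, plus strand, with the BglII site in capitals. The fragment over the start of KLK3 is 4241 bases long and its right end is also the left end of the fragment over the start of KLK2, which is 8132 bases long. The fragment over the start of KLK4 is 7011 bases long.
KLK3 fragment, left end between genes, chr19:51357619-51357648: ctgtggaccacaAGATCTttttatgatgac
KLK3 fragment, right end within KLK3, chr19:51361860-51361889: tccctactcccaAGATCTtgaggggaaagg
KLK2 fragment, right end within KLK2, chr19:51369992-51370021: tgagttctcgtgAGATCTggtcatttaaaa
KLK4 fragment, left end within KLK4, chr19:51414458-51414487: agagacagtgagAGATCTgtctagagagat
KLK4 fragment, right end between genes, chr19:51421469-51421498: tgaaatcaattaAGATCTaattgtgcaggc
One fragment therefore joins the KLK3 start in the first bin to the KLK2 side in the second, and 40 kb bins cannot separate KLK3 from its neighbours. The 3 bins held 8, 9 and 8 BglII sites, against a median of 9 over the usable bins of the chromosome, and a GC content of 52.1%, 48.4% and 47.7% against a median of 47.0%.

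The perturbation is defined by the 4 oligonucleotides of the CTCF siRNA pool, which are given in the labels and are shown here 5′ to 3′ because the comparison rests on them.
CTCF siRNA 1: gaugaagacugaaguaaug
CTCF siRNA 2: ggagaaagaagaagagua
CTCF siRNA 3: gaagaugccugccacuuac
CTCF siRNA 4: gaacagcccauaaacauag
Oligonucleotides 1, 3 and 4 each match the plus strand of GRCh37 at 1 place in CTCF, in coding sequence, at chr16:67644951-67644969, chr16:67644838-67644856 and chr16:67645048-67645066. Each is found in 11 of the 17 annotated CTCF transcripts. Oligonucleotide 2, listed with 18 bases where the others have 19, had 0 exact matches in the CTCF gene or its transcripts as written in the labels. None of the 4 has an exact match on either strand within the 3 kallikrein bins.

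In all, 26174677 read pairs made up the control siRNA map, against 87657263 in CTCF siRNA. In the control the 3 bins had 340, 279 and 318 contacts within chromosome 19 and 435, 477 and 460 with other chromosomes. In CTCF siRNA they had 2373, 2345 and 2011 within the chromosome and 1060, 1211 and 1087 with others. The share within the chromosome thus went from 36.9 to 43.9% in control to 64.9 to 69.1% in CTCF siRNA, while the median over usable bins of chromosome 19 went from 47.8% to 69.8%. Contacts over more than 2 Mb made up 10.1 to 15.8% of these in control and 8.95 to 12.4% in CTCF siRNA. Because the maps differ in composition as well as depth, contacts were compared as observed over expected (O/E), where the expected number comes from each map's own decay with distance and from a coverage factor for each bin.

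Among the segments, contacts were higher after CTCF siRNA on the downstream side, both in the rest of the TAD and beyond its edge. The members were set against 6 partner segments, in and around the TAD at chr19:50620001-52300000, which both lists of the authors contain. Its upstream edge bin overlaps no protein-coding gene and is nearest to IZUMO2, a sperm membrane protein gene, and its downstream edge bin overlaps FPR1, FPR3 and ZNF577. Contacts with the downstream rest of the TAD, 51600001 to 52280000, were depleted in control, with 99 contacts where 143.7 were expected, an O/E of 0.689 (0.560 to 0.839). In CTCF siRNA 1157 contacts were found where 1097 were expected, an O/E of 1.05 (0.995 to 1.12). The ratio of the O/E values was 1.53 (1.246 to 1.90), which met the rule for a change, a ratio of at least 1.5 in either direction with an interval that leaves out 1. Without the bin of KLK4 the ratio was 1.47 (1.126 to 1.94) and short of that size. This segment runs from CTU1, a tRNA-modifying enzyme gene, through the cluster of SIGLEC genes, whose products bind sialic acid mostly on immune cells, to HAS1, FPR1 and FPR2.

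The 1 Mb beyond the downstream edge, which holds FPR3 and a cluster of zinc finger genes from ZNF577 to ZNF28, also had more contacts. In control 10 contacts were found where 37.0 were expected, an O/E of 0.270 (0.130 to 0.497), and in CTCF siRNA 163 where 252.0 were expected, an O/E of 0.647 (0.551 to 0.754), a ratio of 2.39 (1.27 to 5.09). Both maps were below the expected number there, and the CTCF siRNA map less so. The control value rests on 10 contacts.

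The other 4 segments did not meet the rule. Contacts with the upstream rest of the TAD, 50640001 to 51320000, numbered 253 in control and 1640 in CTCF siRNA, with an O/E of 1.06 (0.931 to 1.20) and 0.938 (0.893 to 0.985) and a ratio of 0.887 (0.777 to 1.02). Contacts with the 1 Mb upstream of the TAD were low in both maps, at 23 and 181 contacts, with an O/E of 0.466 (0.295 to 0.699) and 0.494 (0.424 to 0.571) and a ratio of 1.06 (0.685 to 1.71). Contacts between the 3 member bins were above the expected number in both maps, with 89 contacts and an O/E of 1.40 (1.13 to 1.73) in control and 605 contacts and an O/E of 1.31 (1.21 to 1.42) in CTCF siRNA. Their ratio was 0.936 (0.749 to 1.18). With the KLK5 to KLK14 bins, 51440001 to 51600000, the members had 128 and 794 contacts, an O/E of 0.970 (0.809 to 1.15) and 0.914 (0.851 to 0.980), and a ratio of 0.942 (0.780 to 1.14). When bin factors were taken from contacts with other chromosomes, the ratio was 1.40 (1.12 to 1.76) among the members, 1.32 (1.09 to 1.60) with KLK5 to KLK14 and 1.12 (0.979 to 1.28) with the upstream TAD segment, so the direction of these 3 is not settled. Without the bin of KLK1 and KLK15 the ratio with the upstream TAD segment was 0.815 (0.691 to 0.966), an interval below 1. Without the bin of KLK2 it was 0.877 (0.749 to 1.03), and without that of KLK4 0.970 (0.8215 to 1.15).

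**Figure D1:**
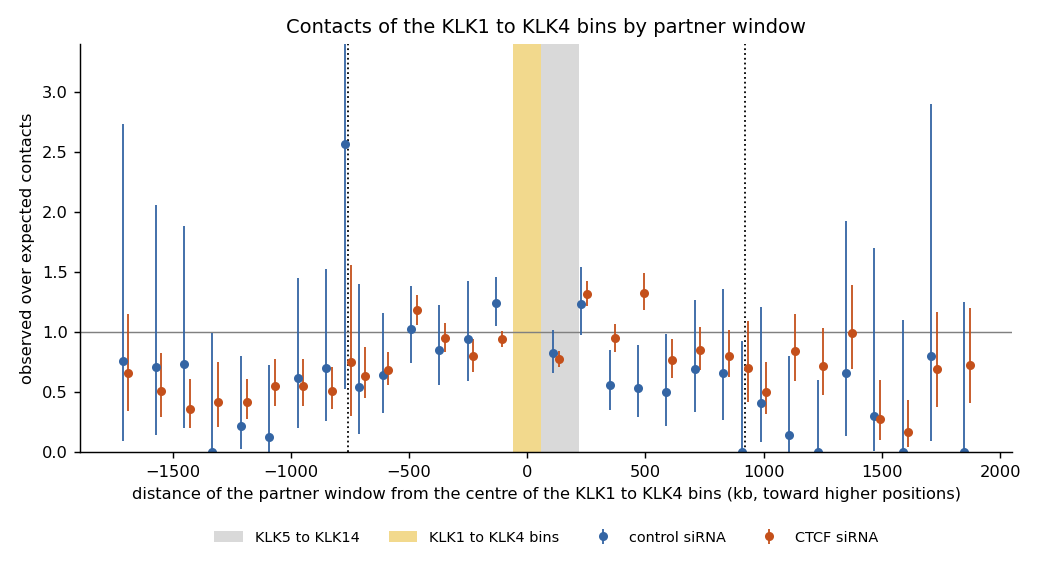
Observed over expected contacts of the 3 KLK1 to KLK4 bins with partner windows of mostly 120 kb, by distance from the centre of the member bins, in control siRNA (blue) and CTCF siRNA (orange). Bars are exact Poisson 95% intervals, cut at the top of the axis, and dotted lines are the TAD edges. Between the KLK5 to KLK14 bins (grey) and the downstream edge, 3 control values have intervals below 1, while the CTCF siRNA value 480 kb downstream is 1.33.

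The change was then located along the chromosome in 31 windows. Of these, 12 had at least 10 contacts expected in control, and 2 of the 12 were higher in CTCF siRNA and 0 were lower. As a background, every non-overlapping set of 3 neighbouring bins on chromosome 19 was given windows at the same distances, and of 3719 such windows 6.91% were called higher and 4.89% lower. Both called windows lay downstream, next to each other, and 0 of the 5 upstream windows were called.

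The window with the larger change, 51800001 to 51920000, held 14 contacts in control where 26.2 were expected and 294 in CTCF siRNA where 221.3 were expected. Its O/E was 0.533 (0.292 to 0.895) in control and 1.33 (1.18 to 1.49) in CTCF siRNA, a ratio of 2.49 (1.46 to 4.61). It holds IGLON5, VSIG10L, ETFB, CLDND2, NKG7, LIM2, C19orf84 and part of SIGLEC10. ETFB encodes a subunit of the mitochondrial electron transfer flavoprotein, NKG7 a granule protein of cytotoxic lymphocytes and LIM2 a lens membrane protein. The window changed from below to above the expected number, and in CTCF siRNA it was the highest window beyond the KLK cluster. Its 3 bins had 9, 3 and 2 contacts in control and O/E values of 0.921, 0.447 and 0.205, against 113, 90 and 91 contacts and O/E values of 1.40, 1.47 and 1.15 in CTCF siRNA.

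The neighbouring window, 51680001 to 51800000, held 22 contacts in control where 39.1 were expected and 265 in CTCF siRNA where 279.3 were expected. Its O/E was 0.563 (0.353 to 0.852) and 0.949 (0.838 to 1.07), a ratio of 1.69 (1.09 to 2.74). It holds CD33, a SIGLEC family receptor of myeloid cells, and SIGLECL1. Without the bin of KLK1 and KLK15 the ratio of this window was 1.52 (0.925 to 2.67), and without the bin of KLK4 it was 1.40 (0.8075 to 2.62), so the call was lost without either of these bins. The window at 51800001 was called without any 1 of the 3 bins, with ratios of 3.81, 2.1 and 2.17 when the bin of KLK1, of KLK2 and of KLK4 was left out.

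The 3 windows from there to the TAD edge, over further SIGLEC genes, ZNF175, HAS1 and the FPR genes, had ratios of 1.54, 1.23 and 1.22, each with an interval that includes 1. Their control values rest on 8, 10 and 7 contacts. The window at 51560001 to 51680000, with KLK13, KLK14, CTU1, SIGLEC9 and SIGLEC7, spans the end of the cluster and had an O/E above 1 in both maps. It held 79 and 601 contacts, with an O/E of 1.23 (0.977 to 1.54) and 1.32 (1.22 to 1.43) and a ratio of 1.07 (0.844 to 1.37). Its bin with KLK13 and KLK14 gave 41 and 259 of these contacts. Its last bin, with SIGLEC7, had O/E values of 0.729 and 0.973 and a ratio of 1.34. The first bin of the neighbouring called window, at 51680001, had 0.772 and 1.04, also with a ratio of 1.34. The windows therefore do not locate where the change begins, and whether the called windows differ from this window was not tested.

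Of the windows beyond the cluster with at least 10 expected contacts, the highest in control was the one next to the members, 51200001 to 51320000, with parts of SHANK1, a postsynaptic scaffold gene, and with CLEC11A, GPR32, SMIM47 and ACP4. It held 145 contacts in control, an O/E of 1.24 (1.05 to 1.46), and 766 in CTCF siRNA, an O/E of 0.941 (0.875 to 1.01). The ratio of 0.757 (0.633 to 0.910) has an interval below 1 and is smaller than the 1.5-fold needed for a call. The interval included 1 without the bin of KLK4, at 0.895 (0.715 to 1.13), with distance alone as the expected number, at 0.865 (0.723 to 1.04), and with bin factors from other chromosomes, at 0.999 (0.835 to 1.20). The window at 50840001 to 50960000, with NR1H2, an oxysterol receptor gene, NAPSA, POLD1, SPIB and MYBPC2, was among the highest in both maps, with 43 contacts and an O/E of 1.03 (0.743 to 1.38) in control and 361 contacts and an O/E of 1.18 (1.06 to 1.31) in CTCF siRNA. Its bins differed. The bin at 50840001 to 50880000, with NR1H2 and NAPSA, was high in both maps, with 24 and 167 contacts and O/E values of 1.59 (1.02 to 2.37) and 1.63 (1.39 to 1.90). The next bin, 50880001 to 50920000, with NR1H2 and POLD1, had 4 contacts in control where 10.3 were expected and 85 in CTCF siRNA where 69.8 were expected, with O/E values of 0.388 (0.106 to 0.993) and 1.22 (0.972 to 1.51). Its ratio of 3.14 (1.18 to 11.8) would meet the rule as a single bin, while its window does not. No share was computed for single partner bins elsewhere on the chromosome, and the control value of this bin rests on 4 contacts. The third bin had 15 and 109 contacts and a ratio of 0.895 (0.520 to 1.65). The third highest window in control, at 51080001 to 51200000 with SYT3 and C19orf81, had O/E values of 0.943 and 0.798. Its last bin, after 51160000, was not among the usable bins, so these values leave it out. This ranking covers windows wholly outside the cluster and leaves out the one at 51560001, which holds KLK13 and KLK14 and had 1.23 in control.

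**Figure D2:**
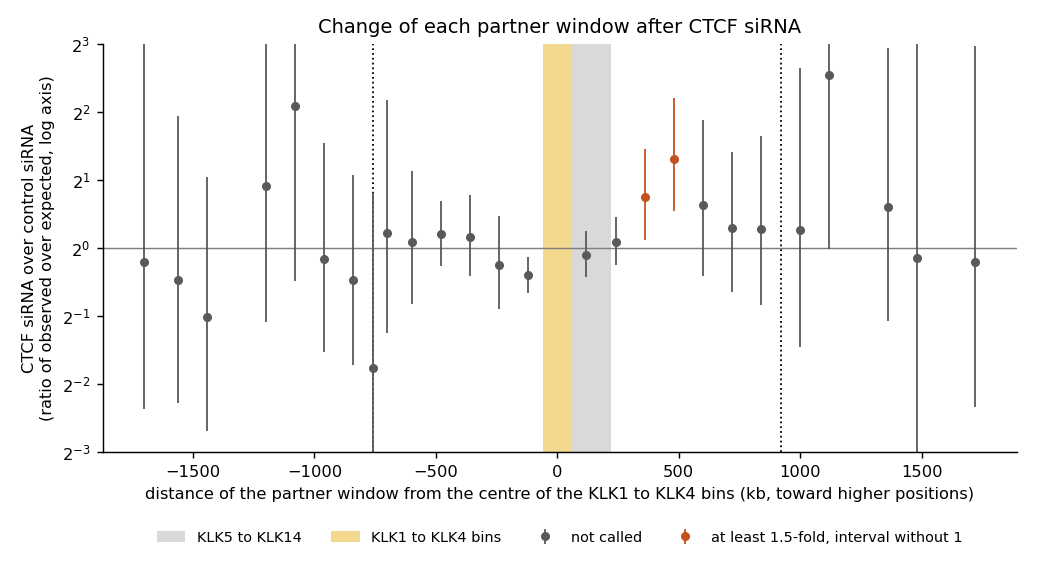
Ratio of observed over expected contacts, CTCF siRNA over control siRNA, for each partner window of the KLK1 to KLK4 bins on a log axis, with exact conditional 95% intervals cut at the ends of the axis. The 5 windows with 0 contacts in control have no ratio and are left out. The 2 windows that met the rule, with ratios of 1.69 and 2.49, lie next to each other downstream of the KLK5 to KLK14 bins (grey).

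Beyond the TAD, single windows held few contacts in control. Of the 16 windows there, 4 had 0 contacts, and the edge window downstream had 0 as well. The window at 52560001 to 52680000, with ZNF432, ZNF841, ZNF616, ZNF836 and part of PPP2R1A, had 0 contacts in control where 6.16 were expected and 28 in CTCF siRNA where 39.0 were expected. With 3 contacts put in place of the 0, its ratio would be 1.47, which is short of the rule. The exact lower limit of its ratio, which also covers the counting error in CTCF siRNA, was 1.12. The window met the rule when bin factors came from contacts with other chromosomes. The window before it, at 52440001 to 52560000, had 1 contact in control where 6.97 were expected and 39 in CTCF siRNA where 46.5 were expected, a ratio of 5.85 (0.990 to 237).

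The same comparison for longer blocks puts the downstream segments against the rest of the chromosome. Of 621 blocks that lay at the distances of the downstream TAD segment from other sets of 3 bins, in either direction, 7.09% were called higher and 3.38% lower, and the median ratio was 0.985. The 5th and 95th percentiles of these ratios were 0.712 and 1.60, and the members' 1.53 lay between them. At the distances of the 1 Mb beyond the downstream edge, 13.6% of 587 blocks were called higher and 3.41% lower. There the members' 2.39 was above the 95th percentile of 2.24. Calls of this kind were thus present elsewhere on chromosome 19, and more often at the longer distance. The segments that rose for the members had a lower GC content than those that did not, with 47.4% in the downstream TAD segment and 43.7% in the 1 Mb beyond it, against 52.5% and 52.1% in the matching upstream segments. Among blocks whose partners had a GC content no higher than these segments, 6.38% of 298 and 14.3% of 112 were called higher. The 95th percentiles of their ratios were 1.74 and 2.45, and the members' 1.53 and 2.39 both lay below them. By window, the called one with a ratio of 2.49 had a GC content of 51.6% and the one with 1.69 had 46.0%. The uncalled windows after them, up to the TAD edge, had 46.9%, 45.1% and 46.4%. The part of base composition in the members' change was not tested further.

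**Figure D3:**
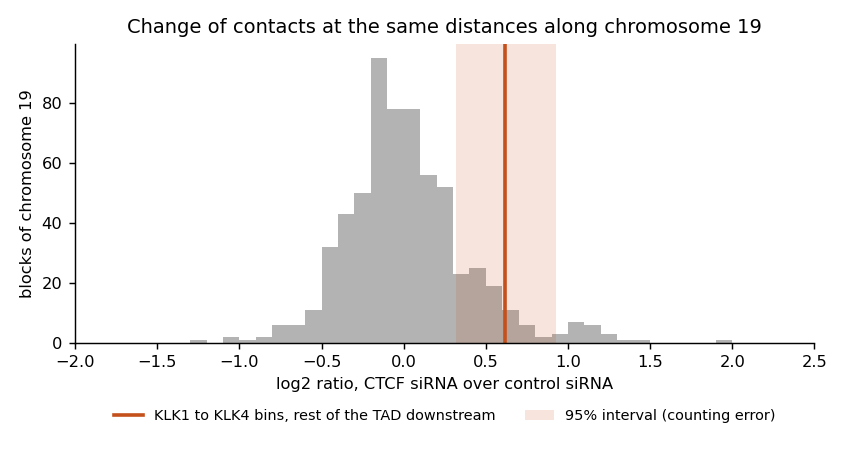
Distribution over 621 blocks of chromosome 19 of the log2 ratio, CTCF siRNA over control siRNA, of contacts at the distances of the downstream TAD segment. The line marks the KLK1 to KLK4 bins at 0.61 and the band their 95% interval, to the right of the median ratio of 0.985. As a ratio, their 1.53 lies below the 95th percentile of the blocks, 1.60.

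The TAD edges were read from the members as the contrast of O/E inside against the 1 Mb outside on the same side. Upstream the contrast was 2.27 (1.48 to 3.48) in control and 1.90 (1.63 to 2.22) in CTCF siRNA, a change of 0.837-fold (0.532 to 1.32). Downstream it was 3.05 (1.62 to 5.74) in control and 1.53 (1.31 to 1.80) in CTCF siRNA, a change of 0.503-fold (0.262 to 0.967). On this measure contacts of the members were more frequent inside than outside on both sides in both maps. The authors called the edges from these same Hi-C data, so a contrast above 1 is no separate evidence for them. Restricted to distances found both inside and outside, the direction turned, with 0.559 (0.0350 to 8.94) in control and 0.735 (0.104 to 5.22) in CTCF siRNA upstream and 0.242 (0.0469 to 1.245) in CTCF siRNA downstream, from at most 5 contacts on either side and with no control value downstream. All 3 of those intervals include 1. The downstream contrast was smaller in CTCF siRNA. O/E in control and CTCF siRNA was 0.824 and 0.992 inside and 0.270 and 0.647 outside, and the control value rests on 10 contacts outside. With distance alone as the expected number, the downstream contrasts were 3.06 in control and 1.725 in CTCF siRNA. They were 2.36 and 1.435 with bin factors from other chromosomes, and 3.46 and 1.86 with the decay of all autosomes. Whether the interval of the change still leaves out 1 under these alternatives was not tested. Both lists place edges at the same positions, 50620001 and 52300000. The neighbouring TAD upstream ran from 49100001 in control and from 50420001 in CTCF siRNA.

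The 3 bins were then compared with each other. With contacts between the members counted, the KLK1 and KLK15 bin had a downstream lean in both maps. It was measured as the share of the bin's contacts within 2 Mb that go downstream. The share was 58.3% (51.9 to 64.4%, Wilson) in control and 61.8% (59.5 to 64.0%) in CTCF siRNA, where 50.7% and 50.9% were expected. The shares of all 3 bins include contacts between the members. With the other 2 member bins the KLK1 bin had 67 of its 137 downstream contacts in control and 476 of 1094 in CTCF siRNA. Its O/E with these 2 bins was 1.68 in control and 1.66 in CTCF siRNA. It was 1.08 and 0.898 with KLK5 to KLK14, and 0.641 and 1.01 with the downstream TAD segment. With the upstream TAD segment it was 0.791 and 0.799. A share without the members was not computed, so a lean in control beyond them was not shown. The KLK2 bin, counted the same way, leaned upstream in both, with 36.7% (30.3 to 43.6%) and 43.7% (41.4 to 46.0%) downstream, where 51.2% and 50.5% were expected. Its contacts with the KLK1 bin were 45 of 126 upstream contacts in control and 352 of 980 in CTCF siRNA. Those with the KLK4 bin were 22 of 73 downstream contacts in control and 129 of 760 in CTCF siRNA. Whether the upstream lean remains without the members was not tested. The KLK4 bin had 44.3% (38.4 to 50.3%) downstream in control, where 53.3% were expected. In CTCF siRNA it had 53.2% (50.8 to 55.6%), where 51.8% were expected. The interval of the KLK4 bin thus lay below the expected share in control and included it in CTCF siRNA. Whether the shift differs between the bins was not tested. Much of the contact between members came from neighbours at the KLK3 end. The KLK1 and KLK2 bins shared 45 and 352 contacts, O/E values of 1.77 (1.29 to 2.36) and 1.75 (1.58 to 1.95), and the KLK1 and KLK4 bins 22 and 124, O/E values of 1.53 (0.960 to 2.32) and 1.44 (1.20 to 1.72). The KLK2 and KLK4 bins, although next to each other, shared 22 and 129 contacts, O/E values of 0.932 (0.584 to 1.41) and 0.742 (0.620 to 0.882).

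The downstream difference had the same direction from each of the bins. With the downstream TAD segment the KLK1 bin had 30 and 353 contacts and a ratio of 1.57 (1.08 to 2.37), the KLK2 bin 30 and 364 contacts and a ratio of 1.36 (0.938 to 2.05), and the KLK4 bin 39 and 440 contacts and a ratio of 1.65 (1.19 to 2.36). The interval of the KLK2 bin includes 1, and its ratio met the rule with distance alone as the expected number, at 1.78 (1.23 to 2.68), and with bin factors from other chromosomes, at 1.95 (1.34 to 2.93). Differences between the bins in log2 ratio ranged from -0.28 to 0.21, and all 3 intervals include 0, the widest running from -0.55 to 0.97. In the 1 Mb beyond the downstream edge the 3 bins had 4, 3 and 3 contacts in control and 62, 53 and 48 in CTCF siRNA. With the upstream TAD segment, the KLK4 bin had an O/E of 1.48 (1.19 to 1.81) in control and 1.12 (1.02 to 1.23) in CTCF siRNA, a ratio of 0.760 (0.608 to 0.958), and the KLK1 bin had 0.791 and 0.799, a ratio of 1.01 (0.806 to 1.28). With bin factors from contacts with other chromosomes these ratios were 0.881 (0.705 to 1.11) and 1.26 (1.002 to 1.59). The difference between the main values was 0.41 on the log2 scale, with an interval from -0.04 to 0.87.

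**Figure D4:**
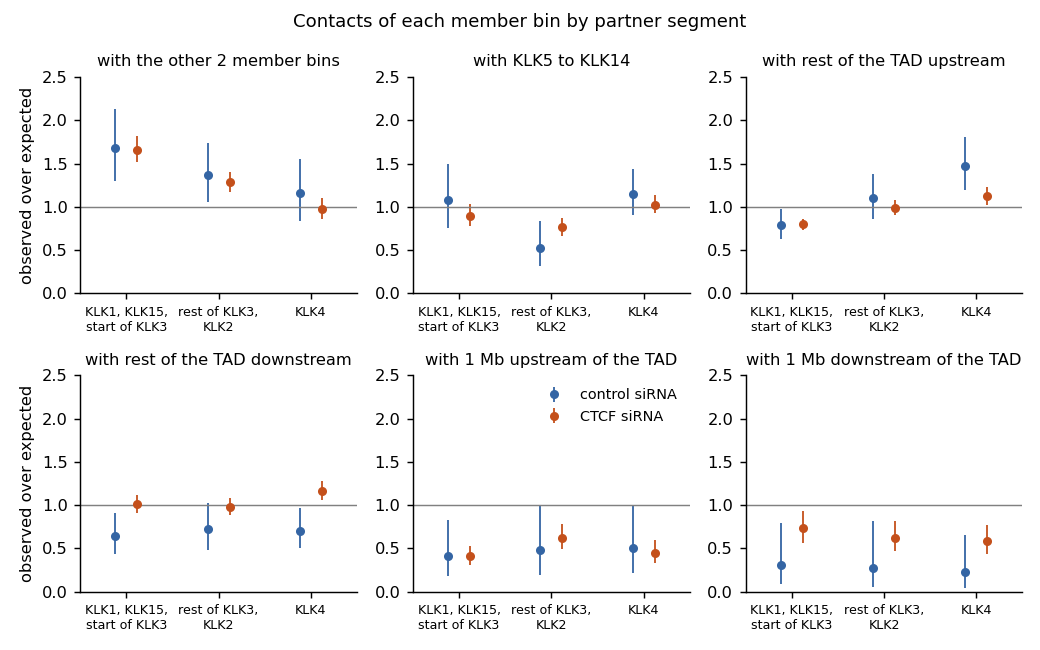
Observed over expected contacts of each of the 3 KLK1 to KLK4 bins with 6 partner segments, in control siRNA (blue) and CTCF siRNA (orange), with exact Poisson 95% intervals. With the rest of the TAD downstream the control values of 0.641, 0.721 and 0.706 lie below the CTCF siRNA values of 1.01, 0.982 and 1.17 for the bins of KLK1, KLK2 and KLK4.

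Contacts of the KLK4 bin with the bins of GPR32 and CTU1 were examined as single pairs. They had been planned as stand-ins for fragments that the study tested by chromosome conformation capture, but these bins lie too far apart to hold both of its outer fragments, so the values below are read as those of 2 chosen pairs and not as a measure of the loops of the study. GPR32 encodes a receptor for resolvins. The KLK4 and GPR32 bins, 160 kb apart, shared 20 contacts in control where 9.20 were expected, an O/E of 2.17 (1.33 to 3.36), and 53 in CTCF siRNA where 61.7 were expected, an O/E of 0.858 (0.643 to 1.12). The ratio of 0.395 (0.232 to 0.697) met the rule for a lower value. Of 672 other pairs of bins 160 kb apart on the chromosome with at least 5 contacts expected in control, 4.46% were called lower and 3.42% higher. The bin next to GPR32, at 51200001 with SHANK1 and CLEC11A, gave the KLK4 bin 22 and 60 contacts and a ratio of 0.471 (0.285 to 0.806), while the ACP4 bin on the other side gave 14 and 82 contacts and a ratio of 0.869 (0.490 to 1.66). These neighbours were looked at after the value of GPR32 was seen. The KLK1 and KLK2 bins had ratios of 0.959 (0.490 to 2.09) and 0.993 (0.476 to 2.40) with the GPR32 bin, so that among the members a call was made for KLK4 only, and whether the bins differ was not tested.

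The KLK4 and CTU1 bins, 200 kb apart, shared 8 contacts in control, an O/E of 1.05 (0.455 to 2.07), and 77 in CTCF siRNA, an O/E of 1.56 (1.23 to 1.95), a ratio of 1.48 (0.716 to 3.55). A difference was not detectable at this depth. The KLK4 bin and the bin of KLK13 and KLK14 at 51560001, 160 kb apart and looked at after other values were seen, shared 19 and 109 contacts, O/E values of 1.73 (1.04 to 2.71) and 1.70 (1.40 to 2.05), and a ratio of 0.979 (0.598 to 1.69). GPR32 with CTU1, the pair that spans the cluster, shared 9 and 36 contacts, O/E values of 1.72 (0.784 to 3.26) and 0.856 (0.600 to 1.19), and a ratio of 0.499 (0.236 to 1.18). Its interval also includes 1.

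Against the KLK5 to KLK14 bins, the other end of the cluster, the members differed in the upstream direction. With the upstream TAD segment KLK5 to KLK14 had O/E values of 1.56 and 1.13, a ratio of 0.721 (0.640 to 0.816) that is under the 1.5-fold of the rule, and the log2 ratio of the members was higher by 0.30 (0.04 to 0.56). Without the bin of KLK1 and KLK15 the difference was 0.18 (-0.12 to 0.47), and without the bin of KLK2 0.28 (-0.0029 to 0.57). Downstream the ratio of KLK5 to KLK14 was 1.44 (1.27 to 1.64), and the difference of 0.08 had an interval that includes 0 (-0.26 to 0.43). In the 1 Mb beyond the downstream edge KLK5 to KLK14 had 13 and 237 contacts and a ratio of 2.76 (1.58 to 5.26), which met the rule as that of the members did, and the difference was -0.21 (-1.43 to 1.02).

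Contacts of the 3 bins with 7 androgen-regulated or prostate genes on other chromosomes were too few for single values in the control. The genes were the androgen-regulated TMPRSS2, FKBP5, SLC45A3 and STEAP2, and the prostate genes ACP3, HOXB13 and FOLH1, each taken with 12 bins on either side. All 7 together had 4 contacts in control where 3.81 were expected, an O/E of 1.05 (0.286 to 2.69), and 22 in CTCF siRNA where 9.56 were expected, an O/E of 2.30 (1.44 to 3.48). In CTCF siRNA the surroundings of HOXB13, a homeobox factor of the prostate, had 6 contacts where 1.51 were expected, an O/E of 3.98 (1.46 to 8.67), and those of FKBP5 had 5 where 1.39 were expected, an O/E of 3.60 (1.17 to 8.39). These 2 of the 7 had intervals above 1. Over all windows of this size on other chromosomes, the members had intervals above 1 in 2.01% of 2582 in CTCF siRNA and in 0.974% of 2464 in control. These shares are for single windows, and none was computed for 7 pooled regions. The control interval of the pooled value includes the CTCF siRNA value. No ratio between the maps was computed for these contacts, so a difference between them was not tested.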

How the data were processed

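Hi-C of LNCaP cells was analysed from 1 contact map and 1 TAD list per condition. Per the labels and methods the authors used BglII as the restriction enzyme and aligned reads against hg19 (Bowtie 1.1.0, SAMtools 1.2, Picard 1.121 and FastQC 0.11.2 in their processing notes), pooled 2 control siRNA and 4 CTCF siRNA libraries, and called TADs. CTCF siRNA libraries 1.1 and 2.1 are numbered as further versions, with the reason not stated. The deposited value is a read-pair count times a factor per bin. Factors lay between positions 9400001 and 48120000, outside the region reported, where 0 values were not whole. Counts were recovered by division. Bins needed 10% of the median coverage in both maps. Expected counts came from iteratively balanced chromosome 19 counts and their mean at each distance. Intervals were exact Poisson for O/E, exact conditional binomial for ratios, Wilson for shares, and from the delta method for contrasts and differences of ratios. Read pairs carry no molecular identifiers. A window or segment was called at 1.5-fold with a 95% interval without 1, and a count of 0 was set to 3. Named genes were the members, KLK5 to KLK14, GPR32, ACP4, CTU1, genes at TAD edges, and genes in called windows and in the 3 highest windows per map. Members and lists were chosen with earlier results of these data known. Scripts (Python 3.11.15, numpy 2.4.6, scipy 1.17.1, pandas 2.3.3) were tested on simulated data. One gene planned for the contacts with other chromosomes is not reported here, for a reason unrelated to its value, and the pooled value is over the other 7.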

Additional observations from a re-analysis of the deposited data

How the results depend on the processing

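No paired analysis was possible because the authors pooled the libraries of a condition into 1 map, and for the same reason no library could be left out. Over 22 results and 172 alternatives, 152 values neither gained nor lost a call and stayed within the interval of the main value (a count of windows, within 1.5 times). This count includes alternatives that could hardly change a value. Segments without a neighbouring bin kept their ratios of 1.53, 1.06 and 2.39 when neighbouring bins were left out. The values as deposited could change only the expected numbers, because the region reported held no factors. The number of called windows, 2, was 1 without the bin of KLK1 and KLK15 or without that of KLK4, 3 with bin factors from contacts with other chromosomes, 4 when a ratio of 5 to 4 was enough for a call and 1 when a 2-fold ratio was needed. With bin factors from contacts with other chromosomes, all segment ratios were higher, and 4 left the interval of the main value: 1.40 among the members, 1.32 with KLK5 to KLK14, 1.12 with the upstream and 1.95 with the downstream TAD segment. The downstream TAD segment was called under every alternative for the expected number, with ratios of 1.509 to 1.951, and not without the bin of KLK4, at 1.467. With the decay of all autosomes the contrast inside over outside in CTCF siRNA was 2.30 upstream and 1.86 downstream. At distances present both inside and outside, it was 0.559 in control and 0.735 in CTCF siRNA upstream, from 1 and 2 contacts outside, and 0.242 downstream in CTCF siRNA, from 5. In control no contact remained there downstream, so that value was not obtained. Alternatives for the pairs of KLK4, GPR32 and CTU1, for single member bins and for the comparison with KLK5 to KLK14 were chosen after seeing the data. The upstream log2 difference from KLK5 to KLK14, 0.298, had an interval that includes 0 without the bin of KLK1 and KLK15, at 0.177, or that of KLK2, at 0.282. The KLK4 and GPR32 ratio stayed between 0.395 and 0.473. Depth limits windows beyond the TAD, where the control map held 0 to 6 contacts each.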
